A study of Gallus gallus with 24 samples.

Results

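The 6 genes described here were followed in cultures of chick retinal pigment epithelium (RPE): the creatine kinases CKMT1B and CKB, the enzymes of creatine synthesis GATM and GAMT, and ABI3 and AHNAK2, which were taken for a strong response to serum. They were chosen by their part in creatine metabolism or by the size of their response to serum in earlier results of these arrays, which set SF3 with serum against SF3. No threshold was set. Whether the response to serum in rcSF3 also entered the choice is not known, so tests and ranks of serum in rcSF3 may not be independent of it. For AHNAK2 the description as strongly serum-induced holds for the E7 cultures in SF3 on its brighter probe set (log2 difference 1.76), while its serum values were 0.69 in SF3 at E14, and -0.17 at E14 and 0.0048 at E7 in rcSF3. All probe sets whose annotated gene symbol is one of the 6 were taken, which gave 10 of the 38439 probe sets on the array that are not controls. CKMT1B, CKB and GATM have 1 probe set each, GAMT and AHNAK2 have 2, and ABI3 has 3. A gene with several is represented by its brightest probe set, by the mean of the 24 arrays, and the others are given as a check.

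RPE was isolated from White Leghorn chick embryos on embryonic day 14 (E14) or embryonic day 7 (E7) and cultured on filters that separate an apical from a basal medium chamber. The apical chamber held SF3, a serum-free medium, or rcSF3, which is SF3 conditioned by neural retinas isolated from E14 embryos for cultures of both ages. In all groups the basal chamber held SF2, which is SF3 with bovine pituitary extract, so no group was free of added protein factors. Serum in the names below is fetal bovine serum added to the basal chamber. The paper states that all arrays shared a single lot of serum. It also reports that lots of serum differed in how they affected gene expression. The serum differences below therefore describe that lot, and other lots were not tested here. The 4 media were rcSF3 with serum, rcSF3, SF3 with serum and SF3, at each of the 2 ages, with 3 arrays per group. The code in the labels for the group taken here as rcSF3 with serum repeats the word for serum and does not name SF3, and it was assigned because each other medium had its own code. The labels do not state whether serum was in the apical chamber of that group too, so values given as serum in rcSF3 may include apical serum. Each array was hybridized with RNA of 1 biologic repeat, pooled from several filters plated on the same day.

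Creatine kinases move a phosphate between ATP and creatine. Phosphocreatine made by a mitochondrial form, such as that encoded by CKMT1B, can be used by a cytosolic form, such as the brain type encoded by CKB, to restore ATP where it is spent. Creatine itself is made in 2 steps: GATM (also known as AGAT) joins the amidino group of arginine to glycine, and GAMT methylates the product. Cells also take up creatine through the transporter SLC6A8. The retina and its epithelium spend much ATP on ion transport, and creatine kinases are known from photoreceptors and RPE. ABI3 is an adaptor protein of the WAVE complex, which controls branching of actin filaments. AHNAK2 is a very large scaffold protein of the AHNAK family.

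The values are signals in arbitrary units on arrays that the authors scaled to a common level, and differences are given on the log2 scale with the standard error (SE) of the fit. Adjusted p values are from limma, adjusted over all probe sets tested, and a gene passed when its adjusted p was under 0.05. Signals of different probe sets cannot be ranked against each other. The 15 measured RPE markers of 16 listed passed the signal filter at both ages. Arrays of the same group correlated at 0.973 to 0.985 over the probe sets kept, and arrays of different groups of 1 age at 0.920 to 0.980. In RNA pooled from whole filters, a change in the share of cells that express a gene and a change in RNA per cell cannot be told apart.

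Of the 6 genes, 5 passed the signal filter and were tested. GATM did not: its probe set read 2.15 to 59.6 on the 24 arrays, under the lowest mean signal kept at either age (104 at E14 and 89.5 at E7). The same was true of the second probe set of GAMT and the third of ABI3. These are signals of dim probe sets, from which no level and no difference of the mRNA can be read.

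**Figure D1:**
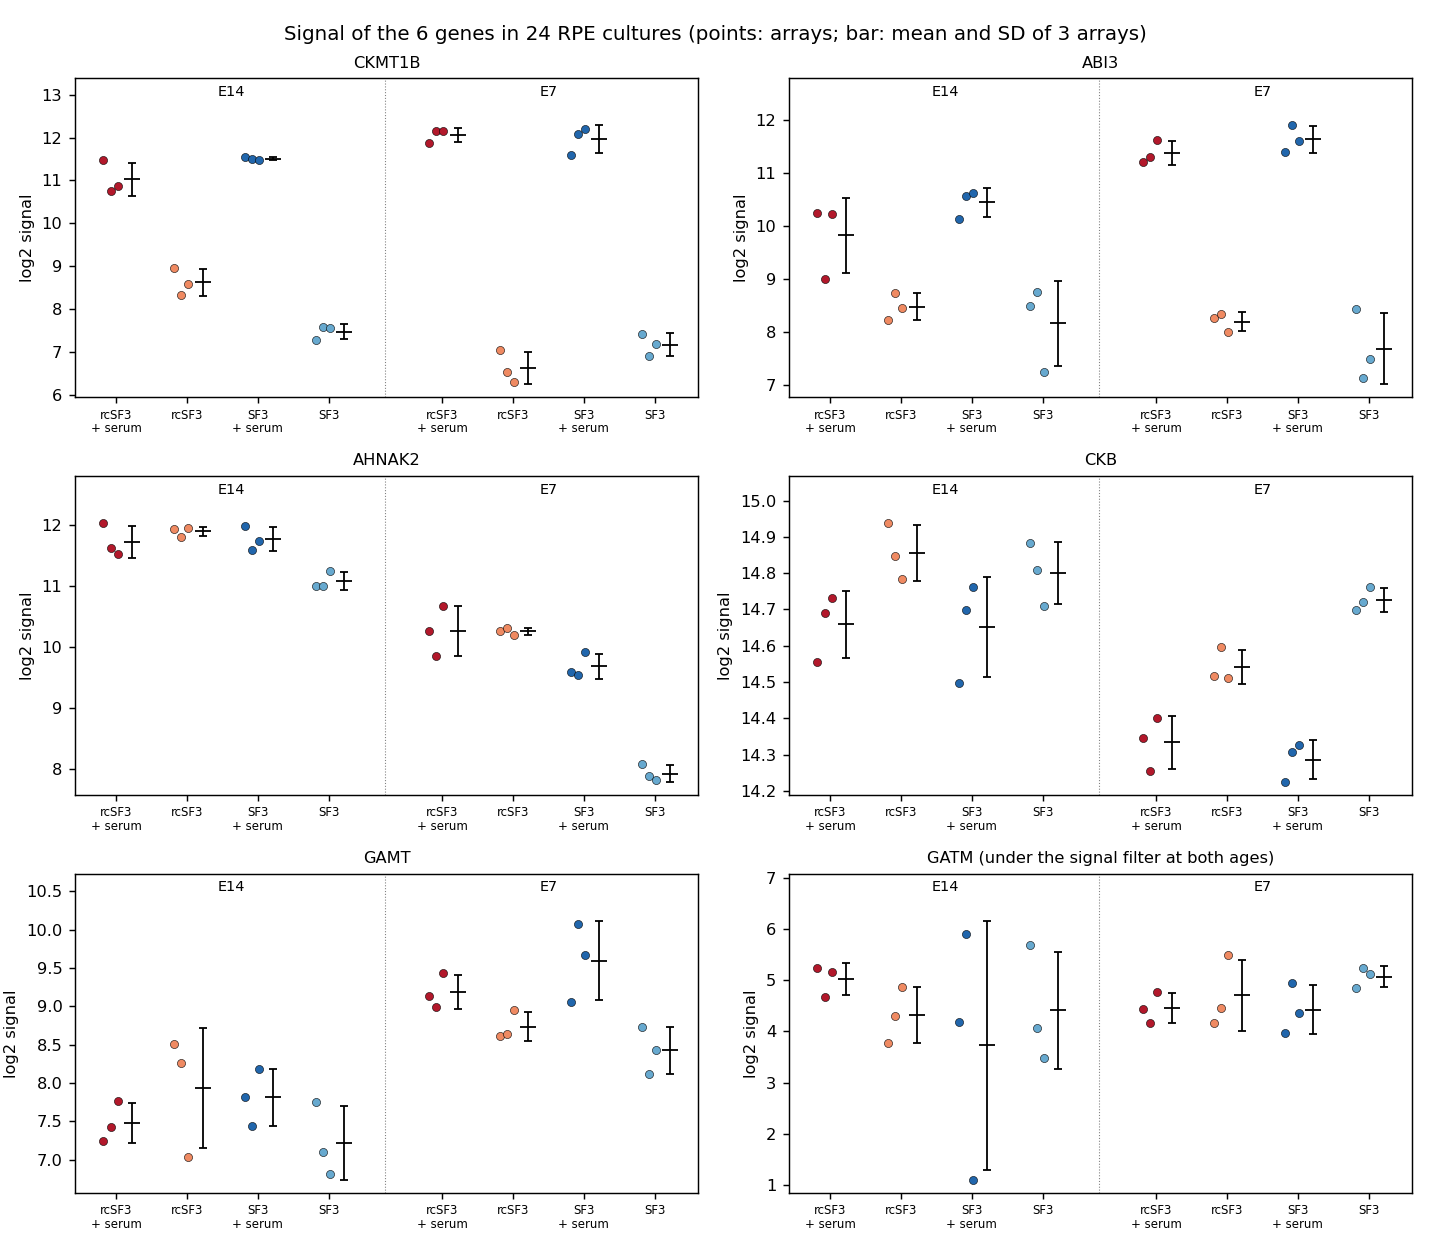
Log2 signal of the probe set that stands for each of the 6 genes, on each array (points) with the mean and SD of the 3 arrays of a group (black bars), at E14 on the left of each panel and E7 on the right; the scale differs between panels. CKMT1B and ABI3 are high in the media with serum at both ages, AHNAK2 is lowest in E7 cultures in SF3, and GATM stays under the signal filter.

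CKMT1B had the widest range of the 6 genes. At E14, its signal was 2842, 1723 and 1859 in rcSF3 with serum, against 496, 322 and 382 in rcSF3. At E7, it was 3754, 4574 and 4523 in rcSF3 with serum, against 131, 92.0 and 79.1 in rcSF3. All arrays with serum lay above all arrays without it at both ages. The log2 difference with serum in rcSF3 was 2.41 ± 0.18 (5.31-fold, limma adjusted p = 1.5e-06) at E14 and 5.44 ± 0.19 (43.3-fold, limma adjusted p = 6.1e-10) at E7. By size, the E7 increase ranked 1 and the E14 increase ranked 10 among all probe sets tested at that age. Whether this response also entered the choice of the gene is not known, so the p values and ranks may not be independent of it. Some E7 signals in rcSF3 lie near the level of the filter, and with all signals under 100 raised to 100 the E7 difference was 5.28.

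The response of CKMT1B to serum in rcSF3 differed between the ages. The E14 difference was smaller than the E7 difference by 3.03 ± 0.29 on the log2 scale, which gives an interaction of -3.03 (limma adjusted p = 2.5e-06). CKMT1B was the only 1 of the 5 tested genes to pass this test, which 0.773% of all probe sets passed, and its interaction ranked 2 among the most negative. In rcSF3, both ends of the response moved with age. In rcSF3 without serum the E14 cultures were higher (2.00 ± 0.20, limma adjusted p = 1.8e-07), and in rcSF3 with serum they were lower (-1.03 ± 0.20, limma adjusted p = 0.00082). The age difference did not pass in SF3 (0.30 ± 0.20, limma adjusted p = 0.27) or in SF3 with serum (-0.45 ± 0.20, limma adjusted p = 0.098). These last 2 tests use arrays that entered the choice of the genes.

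The serum response in SF3 is the comparison by which genes of the set were chosen, so it is described here with no test. CKMT1B read 3006, 2885 and 2872 in E14 cultures in SF3 with serum, against 154, 190.3 and 188 in SF3. In E7 cultures the signals were 3113, 4328 and 4736 with serum, against 171, 119.9 and 145 without it. The log2 differences were 4.05 at E14 and 4.79 at E7. Beside them stand 2.41 and 5.44 in rcSF3, so rcSF3 minus SF3 was -1.64 at E14 and 0.64 at E7.

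Conditioned medium alone went with a higher CKMT1B signal at E14, and at E7 with a small difference of opposite sign that depended on the fit. At E14, rcSF3 gave 496, 322 and 382 against 154, 190.3 and 188 in SF3, with no overlap, a log2 difference of 1.16 ± 0.18 (limma adjusted p = 0.0011). At E7, rcSF3 gave 131, 92.0 and 79.1 against 171, 119.9 and 145 in SF3, which overlap, a log2 difference of -0.55 ± 0.19 (limma adjusted p = 0.049). The E7 signals lie close to the level of the filter, and the E7 value passed in 6 of 16 settings. Its adjusted p was 0.066 with a replicate block, 0.0048 with a block within serum state, and 0.10 to 0.19 without replicate 1 or 3 of E7 SF3 or replicate 2 or 3 of E7 rcSF3, and leaving out 1 array gave -0.76 to -0.39. The difference between the ages in this response was 1.70 ± 0.29 (limma adjusted p = 0.00067). All comparisons of rcSF3 with SF3 without serum, for CKMT1B and the genes below, share the SF3 arrays with those that chose the genes, so their p values are not independent of that choice.

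In media with serum, neither difference of CKMT1B between rcSF3 and SF3 passed. The log2 difference from SF3 with serum was -0.48 ± 0.18 (limma adjusted p = 0.16) at E14 and 0.09 ± 0.19 (limma adjusted p = 0.78) at E7. Without replicate 1 of E14 rcSF3 with serum, the highest of its group, the E14 value was -0.71 (limma adjusted p = 0.036), and without replicate 2 of that group it was -0.35 (limma adjusted p = 0.47). These comparisons, for CKMT1B and the genes below, share the arrays in SF3 with serum with those that chose the genes.

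CKB varied far less. Over all 24 arrays its signal lay between 19147 and 31377. At E14 it was 24059, 26460 and 27184 in rcSF3 with serum, against 31377, 29451 and 28224 in rcSF3. At E7 it was 20821, 19555 and 21635 in rcSF3 with serum, against 23426, 24760 and 23345 in rcSF3. At both ages the arrays with serum lay below those without it, but the differences were small. The log2 difference was -0.20 ± 0.08 (limma adjusted p = 0.076) at E14 and -0.21 ± 0.06 (limma adjusted p = 0.011) at E7, and with quantile normalization both turned to 0.10 (limma adjusted p = 0.21) and 0.03 (limma adjusted p = 0.69). The direction of CKB with serum therefore depends on the scaling. The E7 call was also lost without replicate 2 of E7 rcSF3 with serum (limma adjusted p = 0.062).

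In SF3, described without a test, CKB read 23137, 26576 and 27785 with serum at E14, against 30204, 28694 and 26801 without it, and these overlap. At E7 it read 19147, 20261 and 20554 with serum, against 26573, 26975 and 27799 without it. Conditioned medium alone gave a log2 difference of 0.06 ± 0.08 (limma adjusted p = 0.71) at E14 and -0.19 ± 0.06 (limma adjusted p = 0.021) at E7. The E7 value did not pass with quantile normalization (-0.12, limma adjusted p = 0.11), nor without replicate 2 or 3 of E7 SF3 or replicate 1 or 3 of E7 rcSF3 (limma adjusted p = 0.051 to 0.072).

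By age, CKB was higher in E14 than in E7 cultures in 3 of the 4 media. The log2 difference was 0.32 ± 0.07 in rcSF3 with serum, 0.32 ± 0.07 in rcSF3 and 0.37 ± 0.07 in SF3 with serum (limma adjusted p = 0.0013, 0.0013 and 0.00023). In SF3 it was 0.07 ± 0.07 (limma adjusted p = 0.41), and 0.18 with quantile normalization (limma adjusted p = 0.0099). The age difference in the response of CKB to rcSF3 was 0.24 ± 0.09 (limma adjusted p = 0.15), and it passed when same-numbered arrays of a serum state were treated as a block (limma adjusted p = 0.035).

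GAMT was measured near the lower end of the range. At E14 it read 152, 172 and 217 in rcSF3 with serum, 363, 307 and 131 in rcSF3, 225, 174 and 291 in SF3 with serum, and 216, 137 and 113 in SF3. At E7 it read 562, 509 and 692 in rcSF3 with serum, 391, 399 and 494 in rcSF3, 531, 1078 and 811 in SF3 with serum, and 425, 277 and 346 in SF3. In 3 of the 4 media all E14 arrays lay below all E7 arrays and the difference passed. It was -1.71 ± 0.31 in rcSF3 with serum (limma adjusted p = 0.00042), -1.78 ± 0.31 in SF3 with serum (limma adjusted p = 0.00015) and -1.20 ± 0.31 in SF3 (limma adjusted p = 0.0042). In rcSF3 the arrays did not overlap either, but the value of -0.80 ± 0.31 did not pass (limma adjusted p = 0.066), and it was -1.08 without replicate 1 of E14 rcSF3 (limma adjusted p = 0.025) and -0.35 without replicate 3 (limma adjusted p = 0.41).

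Serum in rcSF3 gave GAMT a log2 difference of -0.46 ± 0.35 (limma adjusted p = 0.37) at E14 and 0.45 ± 0.22 (limma adjusted p = 0.14) at E7. One array decides much at E14. Replicate 3 of E14 rcSF3 read 131 beside 363 and 307, and without it the serum value was -0.90 (limma adjusted p = 0.046) and the rcSF3 value without serum was 1.16 (limma adjusted p = 0.028). Without replicate 1 of the same group these were -0.17 (limma adjusted p = 0.78) and 0.43 (limma adjusted p = 0.54). With all arrays, the response to rcSF3 without serum was 0.71 ± 0.35 (limma adjusted p = 0.22) at E14 and 0.31 ± 0.22 (limma adjusted p = 0.34) at E7. The E14 value passed when same-numbered arrays of a serum state were treated as a block (limma adjusted p = 0.042). In SF3, described without a test, serum gave 0.59 at E14 and 1.17 at E7.

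ABI3 was high with serum at both ages. At E14 it read 1208, 514 and 1195 in rcSF3 with serum, against 300.5, 427 and 348 in rcSF3. At E7 it read 2364, 2511 and 3149 in rcSF3 with serum, against 308, 322 and 254 in rcSF3. The groups did not overlap at either age, although replicate 2 of E14 rcSF3 with serum came close to the cultures without serum. The log2 difference was 1.35 ± 0.35 (2.55-fold, limma adjusted p = 0.012) at E14 and 3.18 ± 0.24 (9.05-fold, limma adjusted p = 9.9e-07) at E7, where it ranked 6 among all increases. The E14 call was lost without replicate 1 or replicate 3 of E14 rcSF3 with serum (limma adjusted p = 0.054 and 0.057). As for CKMT1B, these p values and the rank may not be independent of the choice of the gene.

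The smaller value of ABI3 at E14 was not established as a difference between the ages. The interaction was -1.83 ± 0.48 with a limma adjusted p of 0.075. Among cultures with serum, ABI3 was lower at E14 than at E7, by -1.55 ± 0.34 in rcSF3 (limma adjusted p = 0.0022) and by -1.19 ± 0.34 in SF3 (limma adjusted p = 0.010). Without serum, the age difference was 0.28 ± 0.34 in rcSF3 (limma adjusted p = 0.60) and 0.48 ± 0.34 in SF3 (limma adjusted p = 0.28). The SF3 value was 0.94 without replicate 3 of E14 SF3 (limma adjusted p = 0.029) and 0.19 without replicate 2 (limma adjusted p = 0.72). The age tests of ABI3 in SF3 with serum and in SF3 use arrays that entered the choice of the gene, so they are not independent of it.

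In SF3, described without a test, ABI3 read 1124, 1520 and 1573 with serum at E14, against 361, 429 and 152 without it, and 2693, 3802 and 3116 with serum at E7, against 344, 140.3 and 180.0 without it. These are log2 differences of 2.28 and 3.95, beside 1.35 and 3.18 in rcSF3. Conditioned medium made no difference that passed. Without serum the value was 0.31 ± 0.35 (limma adjusted p = 0.65) at E14 and 0.51 ± 0.24 (limma adjusted p = 0.14) at E7, and the E7 value was 0.88 without replicate 1 of E7 SF3 (limma adjusted p = 0.0021) and 0.24 without replicate 2 (limma adjusted p = 0.51). With serum it was -0.62 ± 0.35 (limma adjusted p = 0.36) at E14 and -0.26 ± 0.24 (limma adjusted p = 0.50) at E7.

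**Figure D2:**
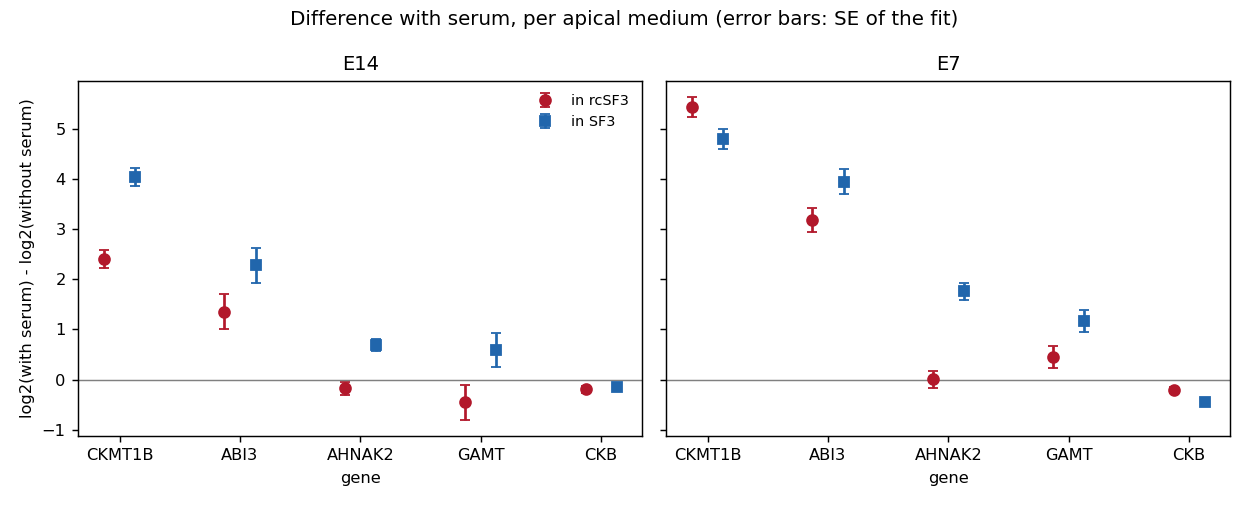
Log2 difference between cultures with and without serum, in rcSF3 (circles) and in SF3 (squares), for the 5 genes that passed the signal filter, at E14 (left) and E7 (right); bars are the SE of the fit. The SF3 values entered the choice of the genes taken for their serum response and are shown as a description. AHNAK2, shown by its brighter probe set, lies near 0 in rcSF3 at both ages and CKMT1B is highest in both media.

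AHNAK2 was lowest where both serum and conditioned medium were absent, and serum made no difference that passed in rcSF3. In E14 cultures the signals were 4157, 3127 and 2935 in rcSF3 with serum, 3902, 3566 and 3926 in rcSF3, 4033, 3074 and 3397 in SF3 with serum, and 2034, 2041 and 2423 in SF3. In E7 cultures they were 1226, 924 and 1627 in rcSF3 with serum, 1220, 1272 and 1176 in rcSF3, 767, 746 and 961 in SF3 with serum, and 269, 235 and 225 in SF3. At each age the 3 arrays in SF3 lay below those of every other medium.

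The log2 difference of AHNAK2 between rcSF3 and SF3 without serum was 0.81 ± 0.13 (1.76-fold, limma adjusted p = 0.0011) at E14 and 2.33 ± 0.17 (5.04-fold, limma adjusted p = 2.0e-07) at E7. The E14 response was smaller than the E7 response, with an interaction of -1.52 ± 0.22 (limma adjusted p = 0.00017). These tests use the SF3 arrays whose low AHNAK2 signal entered the choice of the gene, so they are not independent of that choice. With serum in both media the values were -0.05 ± 0.13 (limma adjusted p = 0.87) at E14 and 0.58 ± 0.17 (limma adjusted p = 0.023) at E7. Both values use the arrays in SF3 with serum, which also entered the choice of the gene, so they are not independent of it either. The E7 groups overlap, and the call was lost without replicate 1 or 2 of E7 SF3 with serum or replicate 1 or 3 of E7 rcSF3 with serum (limma adjusted p = 0.068 to 0.093), with values of 0.38 to 0.79 when 1 array was left out.

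Serum in rcSF3 gave AHNAK2 a log2 difference of -0.17 ± 0.13 (limma adjusted p = 0.36) at E14 and 0.0048 ± 0.17 (limma adjusted p = 0.99) at E7. Beside these stand 0.69 at E14 and 1.76 at E7 in SF3, described without a test. The values in rcSF3 were -0.86 from those in SF3 at E14 and -1.75 at E7. This difference contains the comparison that chose the gene and was not tested.

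AHNAK2 was higher in E14 than in E7 cultures in all 4 media, and no arrays overlapped. The log2 difference was 1.46 ± 0.16 in rcSF3 with serum, 1.63 ± 0.16 in rcSF3, 2.09 ± 0.16 in SF3 with serum and 3.15 ± 0.16 in SF3 (limma adjusted p = 7.5e-07, 8.5e-08, 1.8e-09 and 9.2e-13). The tests in SF3 with serum and in SF3 use arrays that entered the choice of the gene, so they are not independent of that choice.

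**Figure D3:**
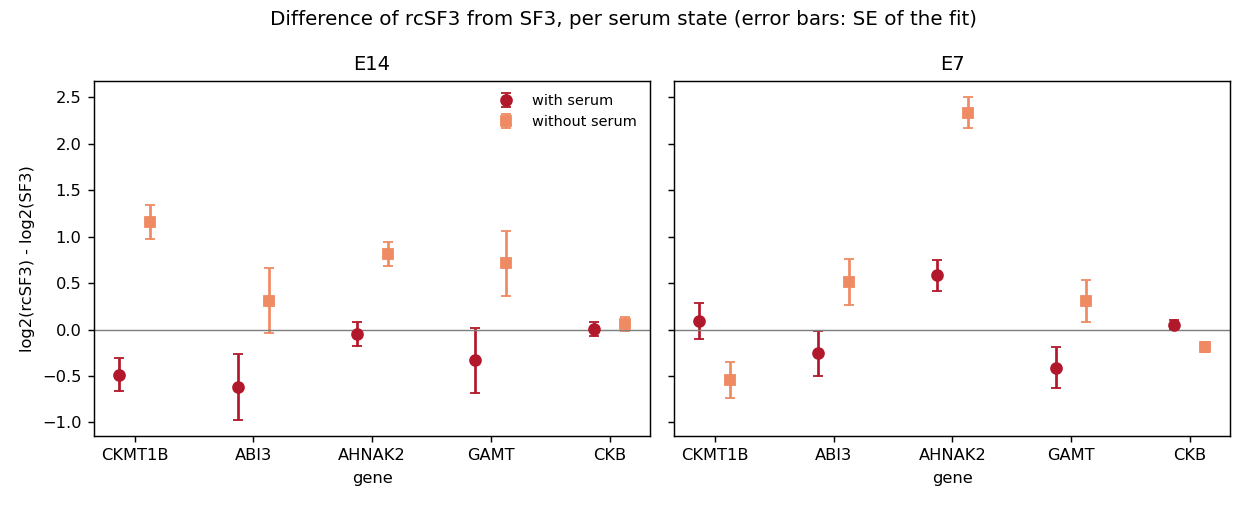
Log2 difference between rcSF3 and SF3, with serum in both media (circles) and without serum (squares), for the 5 genes that passed the signal filter, at E14 (left) and E7 (right); bars are the SE of the fit. Without serum, AHNAK2 is 0.81 higher at E14 and 2.33 higher at E7, and CKMT1B is 1.16 higher at E14 and 0.55 lower at E7.

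Genes with several probe sets allowed a check of the same mRNA at another stretch. The 2 probe sets of AHNAK2 correlated at 0.92 over the 24 arrays, all of which share the groups and the scaling. The other AHNAK2 probe set read 498, 372 and 578 in rcSF3 against 278, 311 and 266 in SF3 at E14, and 203, 218.5 and 229 in rcSF3 against 46.8, 72.6 and 45.6 in SF3 at E7. The groups did not overlap at either age, and the E14 log2 difference was 0.74 ± 0.16 (limma adjusted p = 0.010). At E7 the probe set passed the filter through its rcSF3 groups, and its signals in SF3 lay under the level of the filter, so no size or test is given for E7 differences from SF3. With serum in both media it gave 0.46 ± 0.16 (limma adjusted p = 0.15) at E14. With serum in SF3 at E14 the other probe set showed 0.15, beside 0.69 for the brighter one. For serum in rcSF3 it showed -0.13 ± 0.16 (limma adjusted p = 0.61) at E14 and -0.49 ± 0.26 (limma adjusted p = 0.17) at E7. The E7 arrays did not overlap, with 135.5 to 173.8 in rcSF3 with serum and 202.7 to 228.9 in rcSF3, while the brighter probe set gave 0.0048.

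The second ABI3 probe set correlated with the first at 0.82 and passed the filter at E14 only. At E14 it read 139.9, 124 and 190 in rcSF3 with serum against 153, 54.4 and 104 in rcSF3, which overlap. It passed the E14 filter through its groups with serum. Its E14 means without serum, 103.9 in rcSF3 and 75.3 in SF3, lay under the level of the filter (104.2). No size or test is therefore given for its serum difference at E14. At E7 it read 181, 258 and 312 against 60.1, 95.4 and 32.2, with no overlap. The age differences in media with serum were -0.71 ± 0.57 in rcSF3 (limma adjusted p = 0.42) and -0.49 ± 0.57 in SF3 (limma adjusted p = 0.57) on this probe set. Its E7 signals without serum are those of a dim probe set, and no age difference is given for them.

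**Figure D4:**
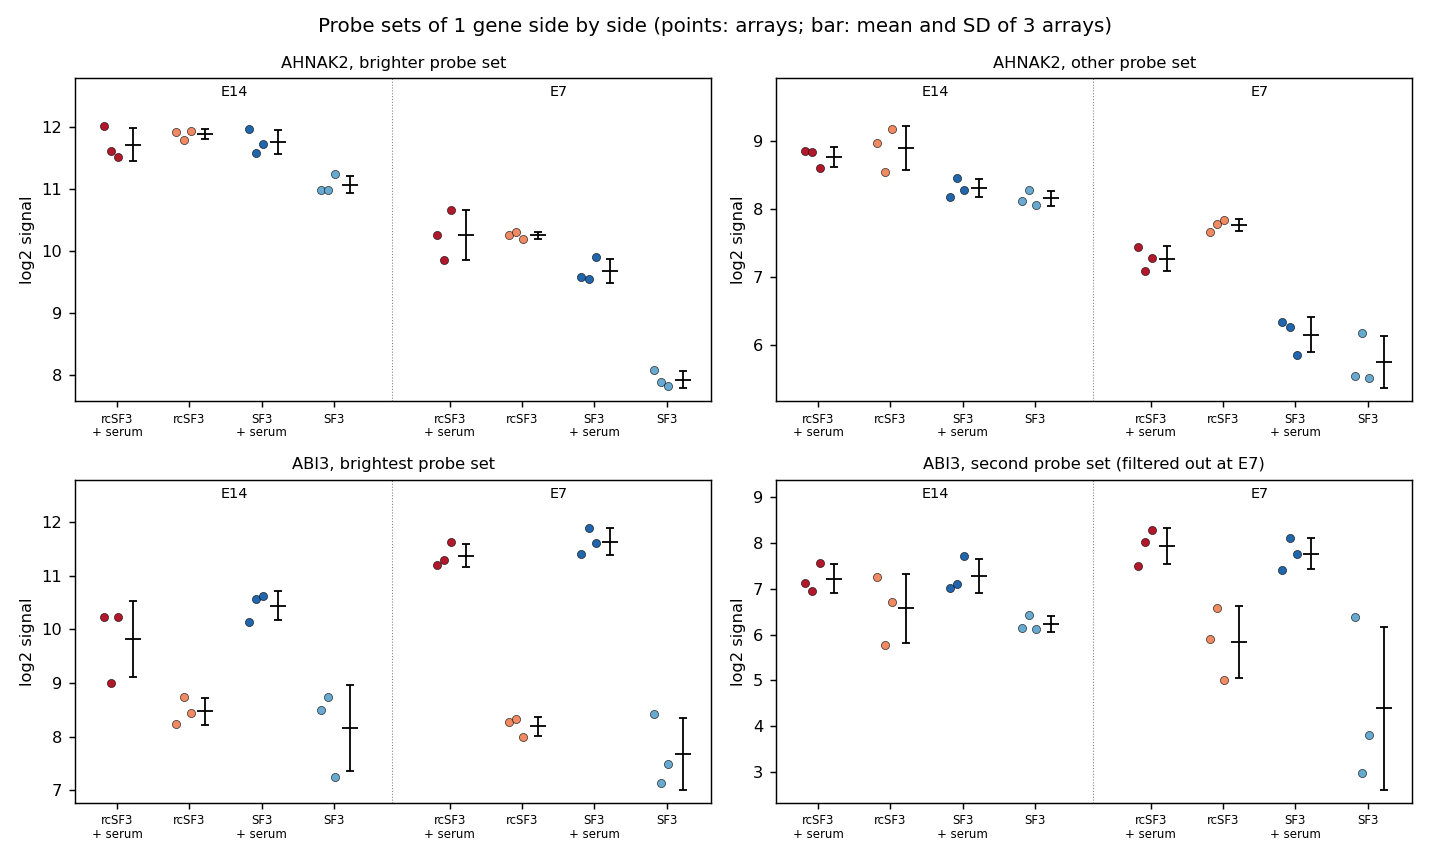
Log2 signal of 2 probe sets of AHNAK2 (top) and of ABI3 (bottom) on each array (points) with the mean and SD of the 3 arrays of a group (black bars), at E14 on the left of each panel and E7 on the right; the scale differs between panels. Both AHNAK2 probe sets are higher in rcSF3 than in SF3, while only the brighter one separates SF3 with serum from SF3 at E14.

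Counted over the 5 tested genes, serum in rcSF3 gave 2 calls at E14, both higher (CKMT1B and ABI3), where 23.8% of all probe sets passed, and 3 calls at E7, 2 higher and 1 lower (CKB), where 30.6% passed. Conditioned medium without serum gave 2 calls at E14, both higher (CKMT1B and AHNAK2), against 10% of all probe sets, and 3 at E7, 1 higher (AHNAK2) and 2 lower (CKMT1B and CKB), against 26.6%. Conditioned medium with serum gave 0 calls at E14, against 2.98% of all probe sets, with 1 gene (CKMT1B) at an unadjusted p under 0.05 and 0 calls by an unmoderated analysis of variance, and 1 at E7, AHNAK2, against 20.8%. The age comparison gave 5 calls in rcSF3 with serum, 2 higher at E14 and 3 lower, against 18.5% of all probe sets. It gave 3 in rcSF3, all higher, against 23.1%, 4 in SF3 with serum, 2 higher and 2 lower, against 28.5%, and 2 in SF3, 1 higher and 1 lower, against 35.4%. The age difference in the response to rcSF3 without serum gave 2 calls, 1 in each direction, against 5.27%. When same-numbered arrays of a serum state were treated as a block, 3033 probe sets in place of 1854 passed for rcSF3 without serum at E14, and 1524 in place of 553 for rcSF3 with serum at E14. With 5 chosen genes these counts are not read as a difference from the rest of the array.

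Of genes around creatine (the transporter, the supply of arginine and methyl groups, and polyamines, which share precursors with creatine), 23 of 29 listed had a symbol on the array and 18 were tested at each age. CKM, the muscle creatine kinase, has no probe set under that symbol in the annotation used, and CKMT2, the mitochondrial form of striated muscle, did not pass the filter. With serum in rcSF3, 5 rose and 3 fell at E14 (44.4%, beside 26.1% of all named genes, with a median log2 difference of 0.05, beside 0.01), and 4 rose and 4 fell at E7 (44.4%, beside 32.6%, with a median of -0.0036, beside 0.02). SLC6A8, the creatine transporter, rose at both ages. Its mean signal was 2446 ± 228 in rcSF3 with serum and 1084 ± 79.3 in rcSF3 at E14 (SD, n = 3 each), a log2 difference of 1.17 ± 0.12 (limma adjusted p = 1.9e-05). At E7 it was 1684 ± 194 in rcSF3 with serum and 1003 ± 54.0 in rcSF3, a log2 difference of 0.74 ± 0.10 (limma adjusted p = 8.7e-05). ARG2, a mitochondrial arginase that uses the arginine GATM also needs, rose by 0.40 ± 0.13 at E14 (limma adjusted p = 0.045) and 1.63 ± 0.10 at E7 (limma adjusted p = 9.7e-08). SLC7A3, a transporter of arginine and other cationic amino acids, rose at E14 (1.09 ± 0.21, limma adjusted p = 0.0022) and was at 0.23 ± 0.17 at E7 (limma adjusted p = 0.32). SAT1, which acetylates polyamines, fell at both ages.

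In rcSF3 without serum, the same list had 3 genes that rose and 2 that fell at E14 (27.8% of the 18, beside 11.4% of all named genes). At E7, 10 rose and 2 fell (66.7%, beside 29.8%), with a median of 0.55, beside -0.03 over all named genes. SLC6A8 fell at both ages, by -0.49 ± 0.12 at E14 (limma adjusted p = 0.017) and -0.41 ± 0.10 at E7 (limma adjusted p = 0.0058), and so did ARG2, by -1.08 ± 0.13 (limma adjusted p = 0.00021) and -0.84 ± 0.10 (limma adjusted p = 1.7e-05). Of the genes that rose at E7, AMD1, which makes the aminopropyl donor of polyamine synthesis, had 0.98 ± 0.10 and AHCY, which removes the by-product of methylation reactions such as that of GAMT, had 0.80 ± 0.09 (limma adjusted p = 5.9e-06 and 2.1e-05). These 2 were chosen after their values were seen.

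**Figure D5:**
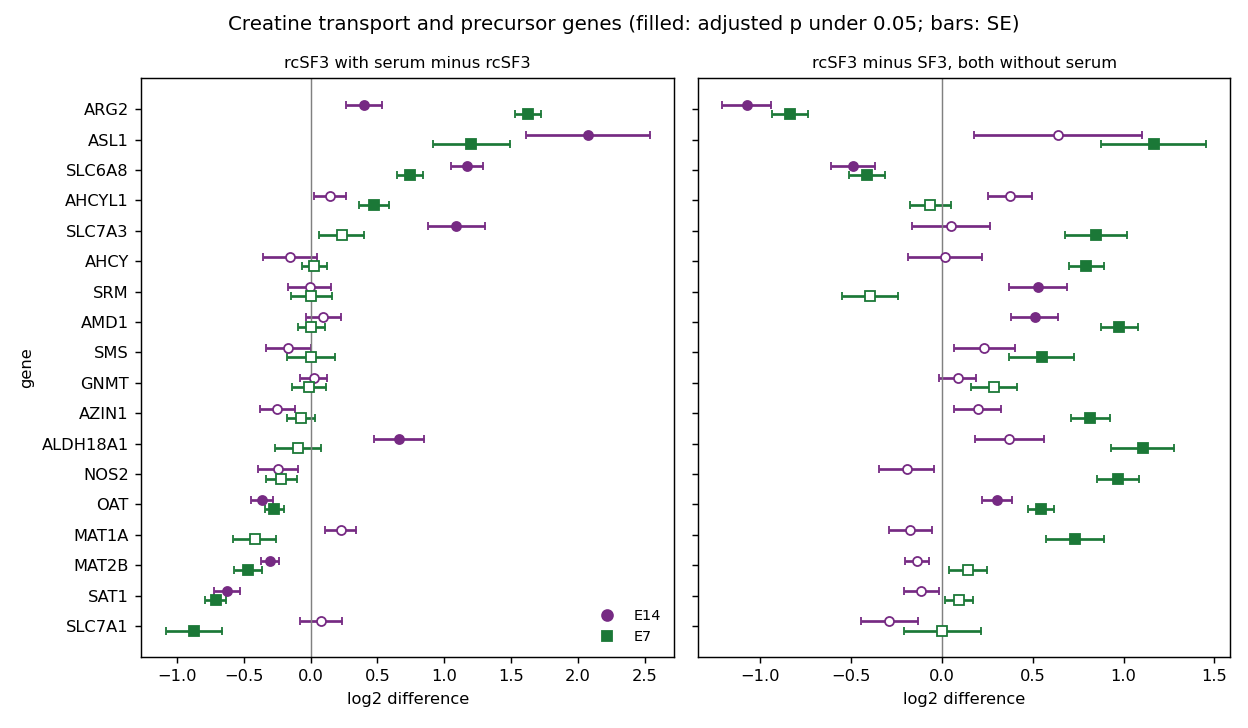
Log2 difference of the 18 tested genes around creatine with serum in rcSF3 (left) and with rcSF3 against SF3 without serum (right), at E14 (circles) and E7 (squares); filled symbols passed an adjusted p of 0.05 and bars are the SE of the fit. SLC6A8 and ARG2 are higher with serum in rcSF3 and lower in rcSF3 without serum at both ages, and at E7 10 genes are higher in rcSF3.

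Of 14 tested genes of other phosphate transfer systems, such as adenylate kinases and AMP-activated kinase, 3 rose and 2 fell with serum in rcSF3 at E14 (35.7%, beside 26.1% of all named genes) and 4 rose and 2 fell at E7 (42.9%, beside 32.6%). The adenylate kinases AK3 (0.49 ± 0.10 at E14, 0.35 ± 0.10 at E7) and AK4 (0.37 ± 0.11 at E14, 0.46 ± 0.09 at E7) rose at both ages, and PRKAA1, a catalytic subunit of AMP-activated kinase, fell (-0.98 ± 0.17 at E14, -0.57 ± 0.16 at E7). The limma adjusted p values of these 3 genes lay between 0.0011 and 0.023. Of 15 genes for mitochondrial partners, such as adenine nucleotide carriers and outer membrane channels, 1 rose and 1 fell at E14 (13.3%, beside 26.1%) and 3 rose and 4 fell at E7 (46.7%, beside 32.6%). The carrier SLC25A5 rose by 0.33 ± 0.09 at E14 and 0.31 ± 0.07 at E7, and the carrier SLC25A6 fell by 0.32 ± 0.07 and 0.32 ± 0.06 (limma adjusted p between 0.0017 and 0.016). The channel VDAC1 rose at E7 (0.58 ± 0.07, limma adjusted p = 6.7e-05) but not at E14 (0.04 ± 0.10, limma adjusted p = 0.82). VDAC2 fell at E7 (-0.25 ± 0.07, limma adjusted p = 0.010) and did not pass at E14 (-0.18 ± 0.07, limma adjusted p = 0.055). The signals of SLC25A6 lie in the range of those of CKB, and the dependence of its fall on the scaling was not tested.

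Of 15 tested genes of the WAVE complex and its regulators other than ABI3, 0 passed with serum in rcSF3 at E14 by limma, and 2 had an unadjusted p under 0.05, CYFIP1 (-0.39 ± 0.15) and NCKAP1 (-0.20 ± 0.08), both core subunits, where 26.1% of all named genes passed. At E7, 2 of 14 rose and 1 fell (21.4%, beside 32.6%). The paralogs ABI1 and ABI2 had -0.22 ± 0.11 and -0.12 ± 0.10 at E14 (limma adjusted p = 0.18 and 0.42), and -0.30 ± 0.12 and -0.25 ± 0.11 at E7 (limma adjusted p = 0.072 and 0.095). CYFIP1 had -0.44 ± 0.13 at E7 (limma adjusted p = 0.021), and NCKAP1L, the subunit of blood cells, had -0.48 ± 0.29 at E14 (limma adjusted p = 0.25) and 0.62 ± 0.22 at E7 (limma adjusted p = 0.043). The other gene of the list that rose at E7 was BAIAP2 (0.63 ± 0.11, limma adjusted p = 0.00068), which had 0.13 ± 0.07 at E14 (limma adjusted p = 0.2).

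AHNAK has no probe set under that symbol in the annotation used. Of its listed partners, most of them annexins and S100 proteins, 2 of 8 rose and 1 fell with serum in rcSF3 at E14 (37.5%, beside 26.1% of all named genes), and 3 of 7 rose and 1 fell at E7 (57.1%, beside 32.6%). The genes tested also include PLCG1 at both ages and CACNB2 at E14, which belong to neither family. ANXA2, which encodes annexin A2, fell at both ages (-0.31 ± 0.07 at E14 and -0.26 ± 0.06 at E7, limma adjusted p = 0.0048 and 0.0028). Its signals lie in the range of those of CKB, and the dependence of its fall on the scaling was not tested. S100A10, which binds AHNAK together with annexin A2, had a mean signal of 4708 ± 447 in rcSF3 with serum and 2861 ± 261 in rcSF3 at E14, and of 3742 ± 290 in rcSF3 with serum and 2422 ± 155 in rcSF3 at E7 (SD, n = 3 each). The log2 differences were 0.72 ± 0.09 (limma adjusted p = 0.00010) and 0.63 ± 0.08 (limma adjusted p = 8.6e-05). In rcSF3 without serum S100A10 fell, by -0.62 ± 0.09 (limma adjusted p = 0.00072) at E14 and -0.48 ± 0.08 (limma adjusted p = 0.00057) at E7, where AHNAK2 rose. In that comparison 0 of 8 partners rose and 1 fell at E14 (12.5%, beside 11.4% of all named genes). At E7, 0 of 7 rose and 4 fell (57.1%, beside 29.8%), S100A11 and ANXA6 among them, while ANXA2 did not pass.

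Other measures moved with serum. Of 27 tested targets of serum response factor and related genes, 9 rose and 5 fell with serum in rcSF3 at E14 (51.9%, beside 26.1% of all named genes), and 11 rose and 6 fell at E7 (63.0%, beside 32.6%). Calponin CNN2 rose by 1.60 ± 0.22 at E14 and 1.53 ± 0.19 at E7 (limma adjusted p = 0.00019 and 4.9e-05). CALD1, which encodes the actin-binding protein caldesmon, fell at both ages (-0.68 ± 0.09 and -0.25 ± 0.07, limma adjusted p = 9.6e-05 and 0.014), and FHL1, a LIM domain protein, was at -0.15 ± 0.18 at E14 (limma adjusted p = 0.59) and fell at E7 (-1.63 ± 0.18, limma adjusted p = 1.6e-05). Of 14 fibroblast markers 9 were tested, and 7 rose at E14 (77.8%) and 5 at E7 (55.6%) with none lower. Their summed signal was 6177 to 12604 in rcSF3 with serum against 2715 to 4186 in rcSF3 at E14, and 6121 to 8689 against 2071 to 4187 at E7. Of 4 melanocyte markers 3 were measured and 1 was tested, SOX10, which rose at both ages. Their summed signal was 7087 to 9318 in rcSF3 with serum, 3867 to 5144 in rcSF3 and 1486 to 2167 in SF3 at E14, and 8515 to 9846 in rcSF3 with serum, 2458 to 4313 in rcSF3 and 999.8 to 1490 in SF3 at E7. In SF3 with serum it was 6903 to 7640 at E14 and 5734 to 7329 at E7. The sum was higher with serum, and higher in rcSF3 than in SF3 without serum, but with serum the 2 media overlapped at E14. EDNRB2 and KIT stayed under the filter, so only SOX10 passed it and the sum does not describe the melanocyte markers as a set. Of smooth muscle markers both tested genes, TAGLN and ACTG2, rose, while ACTA2 stayed under the filter. Of the RPE markers, 10 of 15 fell and 1 rose at E14 (73.3%), and 7 fell and 1 rose at E7 (53.3%), beside the same 26.1% and 32.6%. Several RPE markers have signals as high as CKB, among them RLBP1, with E14 means of 30321 in rcSF3 with serum and 38894 in rcSF3. Whether these counts depend on the scaling, as the direction of CKB did, was not tested. The ratio of the 3' to the 5' probe sets of actin, a sign of RNA integrity, was lower with serum: its log2 mean was 0.32 ± 0.05 in rcSF3 with serum and 0.69 ± 0.08 in rcSF3 at E14, and 0.27 ± 0.10 in rcSF3 with serum and 0.63 ± 0.10 in rcSF3 at E7 (SD, n = 3 each). The same ratio of GAPDH was -0.07 ± 0.04 in rcSF3 with serum and -0.11 ± 0.09 in rcSF3 at E14, and -0.03 ± 0.05 and -0.15 ± 0.04 at E7. That of EF1a was 0.48 ± 0.06 and 0.51 ± 0.03 at E14, and 0.47 ± 0.02 and 0.46 ± 0.06 at E7. The lower ratio with serum was thus seen for actin and not for GAPDH or EF1a. The part of all these measures in the values of CKMT1B and ABI3 was not tested.

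Markers of cells known for these genes gave the following. Of 16 macrophage markers, which bear on ABI3 since blood cells express it, 14 were measured and 4 tested. With serum in rcSF3, 0 were higher and 1 was lower at E14, and 1 was higher at E7. Of all named genes, 26.1% passed at E14 and 32.6% at E7 in this comparison. With 4 tested markers, the counts are not read as a difference from that background. The summed signal of the macrophage markers was 6481 to 8142 in rcSF3 with serum against 6742 to 8890 in rcSF3 at E14, and 7750 to 7803 against 6679 to 8078 at E7. The tested genes, CSF1R, CD74, IRF8 and CTSS, passed the filter at both ages. The other measured markers stayed under it, among them PTPRC and SPI1, which read at most 48.3 and 89.4 on any array. Of 19 striated muscle markers, 17 were measured and 4 tested at E14 and 5 at E7, with sums of 1341 to 1615 in rcSF3 with serum against 1044 to 1352 in rcSF3 at E14, and 1050 to 1170 against 773 to 1082 at E7. Sums of 14 photoreceptor and neuron markers were 1765 to 3006 in rcSF3 with serum against 2494 to 4540 in rcSF3 at E14, and 2833 to 3267 against 4164 to 5246 at E7. The largest part was 1 gene, SNAP25, with means of 1043 in rcSF3 with serum and 1681 in rcSF3 at E14, and 1565 and 2925 at E7. Of the tested genes, 0 of 6 rose and 1 fell at E14 (16.7%), and 1 of 7 rose and 2 fell at E7 (42.9%), beside the same 26.1% and 32.6%. The sum therefore does not describe these markers as a set. Of the glial markers 5 were measured and 2 tested at each age, FABP7 and S100B at E14, and FABP7 and AQP4 at E7. Of these, 1 fell at E14 and 2 fell at E7 in rcSF3 without serum, where AHNAK2 rose. In that comparison 11.4% of all named genes passed at E14 and 29.8% at E7. With 2 tested markers, the glial counts are not read as a difference from that background. The 5 glial markers summed to 562 to 949 in rcSF3 against 1017 to 5577 in SF3 at E14, and 837 to 1812 against 13588 to 15542 at E7. Most of this sum is 1 gene, FABP7, with means of 463.5 in rcSF3 and 2597 in SF3 at E14, and 1066 and 14067 at E7. GFAP and SLC1A3 stayed under the filter at both ages, so the sum does not describe the glial markers as a set. The part of other cell types in the values was not tested.

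Among 15904 named probe sets that passed the filter at either age, those whose log2 signal followed each gene most closely over the 24 arrays were sought. The arrays share 8 groups, so these values describe the group pattern. For CKMT1B they were BCAR1 (Pearson r = 0.97), TPP1 (0.95) and ZYX (0.95), for CKB TMEM59 (0.91), PGRMC2 (0.91) and MOSPD2 (0.88), and for GAMT UPF3B (0.89), ANP32B (0.88) and MRPL41 (0.87). For ABI3 they were PHOSPHO1 (0.96), NDUFV1 (0.94) and NFIX (0.93), and for AHNAK2 JAZF1 (0.97), TENM4 (0.96) and CAP2 (0.95). PHOSPHO1 read 382 to 479.8 in rcSF3 with serum against 186 to 285 in rcSF3 at E14, and 803 to 1314 against 111 to 208 at E7. BCAR1, an adaptor of focal adhesions, read 4029 to 4801 in rcSF3 with serum against 2228 to 2631 in rcSF3 at E14, and 4670 to 5141 against 2020 to 2105 at E7.

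Among the genes themselves, CKMT1B and ABI3 followed each other over all 24 arrays (r = 0.92), within the 12 arrays with serum (r = 0.89) and less within the 12 without it (r = 0.33). CKMT1B and CKB had r = -0.57 over all arrays, -0.77 within the arrays with serum and 0.76 within those without it, so the sign of their relation differed between the serum states. AHNAK2 and ABI3 had r = 0.14 over all arrays and -0.81 within those with serum. Both ages and media contribute to these values, and the arrays of 1 group are not independent of each other. The 24 arrays include those in SF3 with serum and in SF3, whose difference entered the choice of the genes. A high r of CKMT1B and ABI3 across the serum states therefore follows in part from that choice.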

How the data were processed

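RNA was hybridized to 24 one-colour Affymetrix chicken genome arrays. The authors made the deposited intensity values, 1 signal per probe set and array, with GeneChip Operating Software and scaled each array to a common level: after trimming 2% of signals at each end, array means were 500.12 to 500.13. The number of arrays limits the precision. Its version and background correction are not stated in the methods or labels used here. Of 38535 probe sets, 96 controls were left out, 27168 of the rest had 1 gene symbol in the platform annotation, 177 had several and 11094 had none.

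Signals were taken to log2 with no further normalization. At each age the brightest probe sets were kept, 18540 at E14 and 19360 at E7, the numbers of probe sets the study lists as expressed, which it defined by detection calls rather than by brightness, and 19794 kept at either age entered the age comparisons. limma 3.58.1 (R 4.3.3; lmFit and eBayes with trend, two-sided, Benjamini-Hochberg over all probe sets kept) was fitted to the 12 arrays of an age, or to all 24 for ages. The fit was tested on simulated data. Tables and plots were made with Python 3.11.15, pandas 2.3.3, numpy 2.4.6 and matplotlib 3.10.9. The members and lists were chosen with earlier results of these data known. Named genes were the 6 members, the 3 most correlated genes of each, up to 4 genes of each list with the lowest p of serum in rcSF3 at either age, and near relatives or partners of members.

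Replicates are pools of filters, so p-values measure the spread between pools. Same-numbered arrays of 1 serum state deviated together in 6 of 6 pairs at E14 (r = 0.14 to 0.29) and 5 of 6 at E7 (0.037 to 0.19), and in 0 of 12 pairs across serum states at each age by r over 0.1. Alternatives were quantile normalization, other filters, a floor of 100, other variance models, a replicate block, all arrays in 1 fit, other probe sets and leaving out each array.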

Additional observations from a re-analysis of the deposited data

Results flagged for a closer look

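For 2 genes, a response differed between E14 and E7 cultures by a test of the difference itself, in limma over all 24 arrays. The serum response of CKMT1B in rcSF3 was smaller at E14 than at E7, with an interaction of -3.03 on the log2 scale (adjusted p = 2.5e-06). Its response to rcSF3 without serum was larger at E14 than at E7, by 1.70 (adjusted p = 0.00067), and the E7 side of this difference rests on signals near the level of the filter. The response of AHNAK2 to rcSF3 without serum was smaller at E14 than at E7, with an interaction of -1.52 (adjusted p = 0.00017) for the brighter probe set. The other probe set gave -1.27, but its E7 signals in SF3 lay under the level of the filter, so this value has no reliable size and is not a second measurement. The values for rcSF3 without serum rest on the SF3 arrays that entered the choice of the genes and are not independent of it. Whether the response to serum in rcSF3 also entered that choice is not known. The glial marker sum, most of which is FABP7, also differed between rcSF3 and SF3 at E7, and its part in the AHNAK2 values was not tested.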

How the results depend on the processing

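In all settings tried, CKMT1B rose with serum in rcSF3 (limma adjusted p = 2.8e-08 to 0.0011 at E14 and 1.3e-14 to 6.5e-05 at E7). Of 60 tested values, 59 kept their call with a replicate block; CKMT1B in rcSF3 without serum at E7 did not (adjusted p = 0.066). A block within serum state, added after the data were seen, moved 2 of 25 values past the threshold, GAMT and CKB as described.

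Of the 5 genes, 1 in place of 3 passed for rcSF3 without serum at E7 under quantile normalization, no filter and no variance trend. For rcSF3 with serum at E7, 0 in place of 1 passed with no variance trend and in an unmoderated analysis of variance, and for serum in rcSF3 at E14, 1 in place of 2 in that analysis. Leaving out 1 array gave 1 to 3, 0 to 1 and 1 to 3 calls in these comparisons, and 0 to 1 for rcSF3 with serum at E14. The cause was not tested.

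Values that turned sign were not past the threshold after the turn. Under quantile normalization they were CKB with serum in rcSF3 at E14 (0.10) and E7 (0.031), CKB in rcSF3 without serum at E14 (-0.018), CKB with serum in SF3 at E14 (0.025) and AHNAK2 with serum in rcSF3 at E7 (-0.014). With the other AHNAK2 probe set they were serum in rcSF3 at E7 (-0.49), rcSF3 with serum at E14 (0.46) and the age difference in the serum response (0.36). Leaving out 1 array gave ranges across 0 for AHNAK2 with serum in rcSF3 at E7 (-0.20 to 0.21), in rcSF3 with serum at E14 (-0.20 to 0.059) and for age by serum (-0.38 to 0.027). It did so for CKB in rcSF3 with serum at E14 (-0.071 to 0.061) and for age by serum (-0.030 to 0.062), for CKMT1B in rcSF3 with serum at E7 (-0.086 to 0.22), and for ABI3 in rcSF3 without serum at E14 (-0.15 to 0.60) and for age by rcSF3 (-0.66 to 0.087).

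Over all probe sets, calls for rcSF3 with serum at E14 were 553, against 277 with no filter, 239 with no trend, 205 unmoderated, 888 with all arrays in 1 fit, 1524 with the block within serum state, and 109 to 495 without 1 array. For rcSF3 without serum at E14 they were 1854, against 1179 unmoderated, 3033 with that block and 1055 to 1544 without 1 array. The age difference in the serum response had 153, against 94 with no filter, 56 with no trend, 51 unmoderated and 55 to 155 without 1 array; that in the response to rcSF3 had 1044, against 1901 with that block. For rcSF3 with serum at E7 they were 4024, against 2330 to 3814 without 1 array.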

Other observations

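ABI3 and PHOSPHO1, the gene whose signal followed it most closely (r = 0.96 over 24 arrays), are neighbours in the RefSeq annotation with 0 annotated genes between them. PHOSPHO1 encodes a phosphatase known from skeletal mineralization. At E14 its signal averaged 444.6 ± 54.4 with serum in rcSF3, against 230.4 ± 50.4 for rcSF3 alone (SD, n = 3 each). At E7 it averaged 1034 ± 259 with serum in rcSF3, against 168 ± 50.3 for rcSF3 alone. CKB and AHNAK2 lie on 1 chromosome with 35 annotated genes between them, and GATM and CKMT1B with 261.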
